A study of Mus musculus with 16 samples.

Results

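Fn1, Sparc, Postn, Tnc, Thbs1 and Thbs2 encode fibronectin, SPARC (osteonectin), periostin, tenascin-C, thrombospondin 1 and thrombospondin 2, secreted proteins that bind both the extracellular matrix and the cells within it. The genes were taken by name rather than by a measured value, though earlier results of these data were known when they were chosen. All 6 were among the 13733 genes of the expression table, and all 6 passed the filter of at least 1 CPM (read count scaled to the size of the library) in at least 4 of the 16 libraries, as 13173 genes did. They were measured by bulk RNA-seq in cells from mouse knee joints, in 4 groups of 4 samples, each called a mouse below although it is not stated whether animals were pooled. WT D0 and WT D7 are uninjured and injured C57BL/6 mice, and Trem2-/- D0 and Trem2-/- D7 are uninjured and injured mice of the germline knockout of Trem2, a receptor of macrophages and other myeloid cells, on the same background. D7 is 7 days after rupture of the anterior cruciate ligament by a single compression of the tibia at 10 weeks of age. The methods name male mice and cells released from the joint by enzymes, whereas a protocol note and the age label give 16 weeks, and the same note describes homogenized joints of control and T1DM mice, which no genotype or condition label mentions. For how the cells were obtained the methods refer to their single-cell protocol, which separates CD45+ from CD45- cells with magnetic beads, and they do not say whether that step was applied here or which fraction was used.

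Fibronectin is assembled by cells into fibrils on which other matrix proteins are deposited, and cells hold on to it through integrins such as the pair encoded by Itga5 and Itgb1. SPARC binds collagen and helps it to be processed into fibrils, periostin links collagen to fibronectin and tenascin-C, and tenascin-C and the thrombospondins loosen or tune the adhesion of cells to matrix. In healthy adult connective tissue many of these matricellular proteins are scarce, and they are known to appear during wound repair and fibrosis, made largely by fibroblasts. Thrombospondin 1 is also stored in platelets and made by myeloid and endothelial cells, and it can activate latent TGF-beta and restrain the growth of blood vessels. The study's single-cell data place Sparc among the markers of a joint macrophage cluster, and Fn1 among the genes higher in that cluster late after injury.

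The libraries held 11567073 to 32867818 reads on listed genes (median 16399898), and no value of the 6 genes rested on fewer than 1436 reads. Trem2, the targeted gene, had 16.8 ± 5.08 CPM (SD, n = 4) at WT D7 and 4.27 ± 0.644 at Trem2-/- D7, with no overlap, and 4.56 ± 1.40 and 1.80 ± 0.713 at D0, where the groups overlapped. Fibroblast markers such as Pdgfra, Lum and Dcn were above 0 in every library, as were leukocyte markers such as Ptprc, which encodes CD45. The leukocyte markers were called lower after injury in both genotypes (6 of 6 in each by the test described next, against 18.2% of all genes in WT and 27.9% in Trem2-/- mice), the 6 neutrophil markers likewise, and the cartilage markers rose (5 of 5 in each, against 19.3% and 26.5%). In WT mice 0 of 6 leukocyte and 2 of 6 neutrophil markers were lower without overlap, against 9.34% of all genes. In Trem2-/- mice 6 of 6 of each were, against 26.3%. The macrophage markers are given with the receptors below. In bulk samples such as these, fewer cells of a type, less RNA per cell and a larger share of RNA from other cells cannot be told apart.

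The 6 genes together took 1.15 to 2.80% of all reads in the 8 D0 libraries and 4.12 to 4.98% in the 8 D7 libraries. After injury 5 of the 6 were called higher in WT mice, against 19.3% of all genes tested, where called means an unadjusted limma p under 0.05 and a difference beyond 0.32 on the log2 scale in either direction. None was called lower, against 18.2%. The same 5 were called higher in Trem2-/- mice, against 26.5% of all genes, and Thbs1 was called lower, as 27.9% of genes were. The 5 rises ranked near the top of all genes, above those of 98.4 to 99.7% of genes in WT and 98.7 to 99.8% in Trem2-/- mice.

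Fn1, on chromosome 1 at 71585520-71653200 (minus strand, GRCm38, as are all positions given), was the most abundant of the 6 after injury. WT D0 mice had 8233, 4106, 3189 and 10771 CPM, and WT D7 mice had 28355, 28155, 29218 and 34415 CPM. The D0 values spread widely and the D7 values little, and the groups did not overlap (exact two-sided permutation test, p = 0.0286, the smallest that 4 against 4 mice allow). Trem2-/- D0 mice had 4004, 4045, 3938 and 7624 CPM, and Trem2-/- D7 mice had 25371, 26125, 37292 and 28179 CPM. Every injured mouse of either genotype was above every uninjured mouse, and the fitted rise was 2.36 ± 0.44 on the log2 scale in WT (SE, limma, adjusted p = 0.00221), 5.13-fold, and 2.62 ± 0.44 in Trem2-/- (adjusted p = 1.99e-04), 6.15-fold. Under quantile normalization, which forces all libraries to 1 distribution, these were 0.76 and 0.85 and were not called (limma adjusted p = 0.283 and 0.196).

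Sparc (chromosome 11 at 55394500-55423183, minus strand) followed the same course at a lower level. It stood at 2471, 701, 1661 and 4139 CPM in WT D0 mice and at 6136, 5690.0, 6912 and 9271 CPM in WT D7 mice, with no overlap (exact permutation p = 0.0286). Among Trem2-/- mice it went from 1101, 1320.5, 723 and 1106 CPM at D0 to 6909.6, 6322, 8151 and 5538 CPM at D7, again with no overlap. The rise was 1.89 ± 0.41 (log2, SE) in WT, 3.70-fold, and 2.68 ± 0.41 in Trem2-/-, 6.41-fold (limma adjusted p = 0.00485 and 1.02e-04).

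Postn and Tnc encode proteins that bind each other. Postn (chromosome 3 at 54361109-54391037, plus strand) had 743, 213, 519.7 and 3057 CPM in WT D0 mice and 4245, 5109, 2519.6 and 2724 CPM in WT D7 mice. WT D0 replicate 4 was above 2 of the 4 injured mice, so the WT groups overlapped (exact permutation p = 0.0857). The Trem2-/- values were 441, 219, 302 and 233 CPM at D0 and 6519, 5294, 4876 and 5126 CPM at D7, with all uninjured mice far below all injured ones (p = 0.0286 by the same exact test). The fitted rise was 2.30 ± 0.56 (log2, SE) in WT, 4.93-fold, and 4.23 ± 0.56 in Trem2-/-, 18.8-fold (limma adjusted p = 0.00858 and 3.90e-05).

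Tnc (chromosome 4 at 63959785-64047015, minus strand) had 318, 77.0, 171 and 1297 CPM in WT D0 mice and 1817, 2541, 1369 and 1873 CPM in WT D7 mice, which did not overlap although WT D0 replicate 4 came close. Trem2-/- D0 mice had 148, 111, 85.6 and 141 CPM, and Trem2-/- D7 mice had 2337, 2293, 2307 and 2399 CPM. The 4 injured Trem2-/- mice agreed to within a coefficient of variation of 2.00%, against 25.4% in injured WT mice. The rise was 2.76 ± 0.57 (log2, SE) in WT, 6.80-fold, and 4.29 ± 0.57 in Trem2-/-, 19.5-fold (limma adjusted p = 0.00366 and 3.91e-05), and both pairs of groups gave an exact permutation p of 0.0286.

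The thrombospondins parted. Thbs2 (chromosome 17 at 14665500-14694235, minus strand), a trimeric protein that influences collagen fibril assembly, had 473, 86.8, 230.0 and 979.8 CPM in WT D0 mice and 1040.1, 1371, 625 and 1355 CPM in WT D7 mice. WT D0 replicate 4 was above WT D7 replicate 3, and the WT groups overlapped (exact permutation p = 0.0571). Trem2-/- mice had 163, 105, 105 and 195 CPM at D0 and 2093, 1534, 1720.4 and 1202 CPM at D7, with no overlap (p = 0.0286, exact). The rise was 1.75 ± 0.53 (log2, SE) in WT, 3.37-fold, and 3.54 ± 0.53 in Trem2-/-, 11.7-fold (limma adjusted p = 0.0242 and 8.76e-05).

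Thbs1 (chromosome 2 at 118111876-118127133, plus strand) went the other way. WT D0 mice had 7242, 6995, 9256 and 6597 CPM and WT D7 mice had 2966, 4324, 8296 and 5745 CPM. WT D7 replicate 3 lay among the uninjured mice and the other 3 below all of them (exact permutation p = 0.143). Trem2-/- mice had 9925, 8934, 5201 and 6579 CPM at D0 and 3387, 3517, 3735 and 4437 CPM at D7, all injured mice below all uninjured ones (p = 0.0286, same exact test). The Trem2-/- level fell by 0.99 on the log2 scale (SE 0.33, limma adjusted p = 0.0202), 1.98-fold. The WT difference of -0.58 (SE 0.33, 95% interval -1.29 to 0.12) was not called (limma adjusted p = 0.185), but it was under quantile normalization (-1.92, adjusted p = 0.00312), with voom (-0.63), with a variance not tied to expression level and without WT D7 replicate 3 (-0.83, adjusted p = 0.0596). That library also had the highest summed leukocyte markers of its group, 3697 CPM against 1703 to 2565 in the other 3 WT D7 mice, and the highest summed neutrophil markers, 12598 against 3898 to 6735 CPM. The part of these cells in the Thbs1 values was not tested. The summed platelet and megakaryocyte markers were low and overlapped. They stood at 37.7 to 76.6 CPM in WT D0 and 30.2 to 63.5 in WT D7 mice. In Trem2-/- mice they stood at 27.9 to 90.7 CPM at D0 and 37.1 to 46.0 at D7. This sum mixed genes that moved in opposite directions. Of its 5 genes, WT injury brought 1 rise and 2 falls by the limma call, and Trem2-/- injury 2 rises and 1 fall. At Trem2-/- D0 Gp9 had 0.821 to 2.82 CPM and Gp1bb 1.58 to 5.38. At Trem2-/- D7 Gp9 was lower, at 0.448 to 0.584, and Gp1bb higher, at 5.42 to 7.11 CPM. The part of platelets in the Thbs1 values was not tested either.

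**Figure D1:**
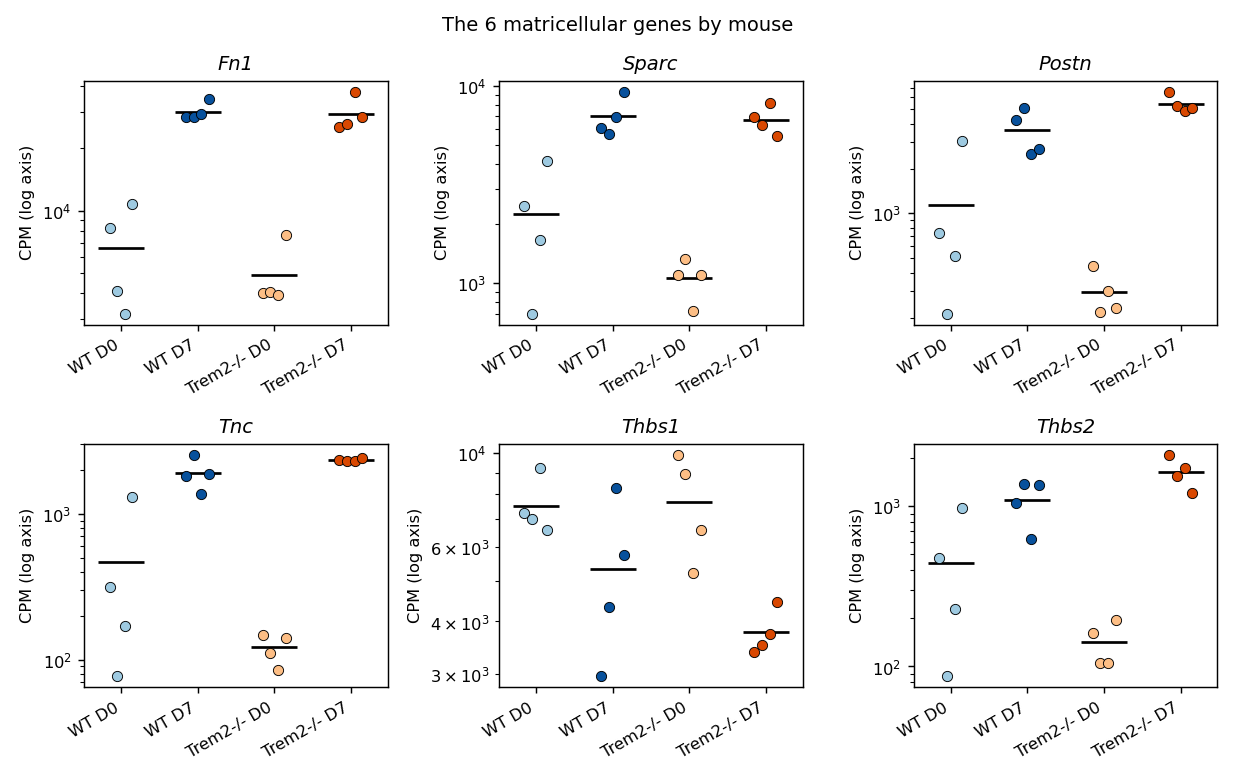
CPM of the 6 genes in each of the 16 mice (log axis, 1 panel per gene, scales differ), by group, with points for mice and bars for the group mean. In the panels of Fn1, Sparc and Tnc all injured mice sit above the uninjured mice of their genotype, and WT D0 replicate 4 is the top WT D0 point for 5 of the 6 genes. Thbs1 runs downwards, without overlap in Trem2-/- mice only.

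The size of the WT rises depended on 2 uninjured mice. WT D0 replicate 4 had the highest and WT D0 replicate 2 the lowest summed fibroblast markers of their group (5488 and 1285 CPM), and the same held for the summed cartilage markers (9155 and 271 CPM). WT D0 replicate 1 was close to replicate 4 in fibroblast markers (5169 CPM) but not in Postn or Tnc. It had 743 CPM of Postn and 318 of Tnc, against 3057 and 1297 in replicate 4. Without WT D0 replicate 4 the WT rises were 3.00 for Postn, 3.51 for Tnc and 2.30 for Thbs2, and without WT D0 replicate 2 they were 1.72, 2.16 and 1.14 (log2), all still called. By overlap, 3 of the 6 genes were higher in every WT D7 mouse than in any WT D0 mouse, against 12.9% of all genes, and 0 were lower, against 9.34%. Among Trem2-/- mice 5 were higher without overlap, against 26.1%, and 1 was lower, against 26.3%.

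The 5 rising genes were also correlated over the mice. Over the 16 libraries the 5 rising genes had Pearson's r of 0.909 to 0.987 with each other on the log2 scale, a description in which the libraries share their injury state. Around the group means injury no longer enters, but WT D0 mice weigh most, since their spread was the widest for all 5 genes. The SD of log2 Tnc was 1.71 at WT D0, against 0.364 at WT D7, 0.360 at Trem2-/- D0 and 0.0287 at Trem2-/- D7. Around these means r was 0.935 between Postn and Tnc, 0.929 between Tnc and Thbs2 and 0.863 between Postn and Thbs2. Sparc was close behind with Thbs2 (0.849), Tnc (0.844) and Postn (0.707), Fn1 had 0.512 to 0.723 with these 4, and Thbs1 had -0.233 to 0.152 with the other 5. For the 3 genes of the 3 highest of these values, the 250 bases before an annotated start are shown (RefSeq, GRCm38.p6, each read along the strand of its gene), with matches to the letters TATAAA (which reads TTTATA when on the other strand) and to GGGCGG in capitals:
Postn, chr3:54360857-54361106, plus strand: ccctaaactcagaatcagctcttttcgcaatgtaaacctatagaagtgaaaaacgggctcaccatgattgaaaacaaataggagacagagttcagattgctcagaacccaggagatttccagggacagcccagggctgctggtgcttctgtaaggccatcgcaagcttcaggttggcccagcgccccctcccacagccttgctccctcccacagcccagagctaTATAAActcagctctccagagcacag
Tnc, chr4:64047016-64047265, minus strand: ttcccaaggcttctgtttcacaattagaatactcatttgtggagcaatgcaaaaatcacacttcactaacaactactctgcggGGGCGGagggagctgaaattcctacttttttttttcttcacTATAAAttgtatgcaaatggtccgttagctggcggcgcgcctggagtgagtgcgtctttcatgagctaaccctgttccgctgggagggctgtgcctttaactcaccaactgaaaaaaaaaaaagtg
Thbs2, chr17:14694263-14694512, minus strand: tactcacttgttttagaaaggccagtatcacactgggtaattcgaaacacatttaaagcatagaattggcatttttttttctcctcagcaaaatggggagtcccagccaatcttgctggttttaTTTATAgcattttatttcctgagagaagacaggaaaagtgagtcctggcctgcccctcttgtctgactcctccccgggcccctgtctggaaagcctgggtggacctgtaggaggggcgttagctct
None of the 3 windows holds a base of a GENCODE exon. The table had 2 starts each for Postn and Tnc. The window nearest to the GENCODE start of the gene was taken, and the other Postn window, further upstream, held none of the letters searched, while the other Tnc window overlapped the one shown and held the same matches at -205 to -200 and -246 to -241. The Postn window holds TATAAA at -26 to -21 from its start, the usual place of a TATA box, whereas the match in the Tnc window is at -126 to -121 and that of Thbs2 is on the other strand at -126 to -121. Only these exact letters were searched, so variants were not counted, such as the tatataa close to the start in the other Tnc window. TATAAA occurs on either strand in 12.4% of the 32851 RefSeq windows of this length, and GGGCGG, which the Tnc window holds at -167 to -162, in 32.7%. The letters TGACGTCA of the cAMP response element, TGANTCA of AP-1, GGAATG of the TEAD factors and GTCTAGAC of the SMADs were searched on both strands too, as was the CArG box, and none was in these windows. Such letters are descriptions of the windows and not sites shown to be bound.

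Whether the loss of Trem2 altered these genes was asked at D7 first. None of the 6 was called at D7 (0 of 6, against 1.18% of genes called higher and 4.53% called lower, a total of 753 that ran from 479 to 1121 with 1 library left out). Postn had 5454 ± 730.5 CPM in Trem2-/- and 3649 ± 1241 in WT mice (SD, n = 4), a difference of 0.63 (log2, 95% interval -0.55 to 1.82). Thbs2 had 1637 ± 372 against 1098 ± 350 CPM, a difference of 0.61 (-0.51 to 1.74), and Tnc 2334 ± 46.7 against 1900.3 ± 483 CPM, a difference of 0.33 (-0.87 to 1.53). Fn1 and Sparc differed by -0.05 each (-0.98 to 0.88 and -0.92 to 0.82), with a sign that changed on leaving out single libraries, and Thbs1 by -0.41 (-1.11 to 0.29). All 6 pairs of groups overlapped, against 3.55% of genes higher and 4.78% lower without overlap, and the limma adjusted p ran from 0.824 to 0.991. With a spread estimated from the D7 groups alone, Postn and Thbs2 were called (limma adjusted p = 0.291 and 0.303). Of all genes tested, 0 had an adjusted p under 0.05 at D7 by limma, with 958 at an unadjusted p under 0.05 and 891 called on recovered reads by edgeR at the unadjusted threshold.

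In uninjured mice 2 of the 6 were called lower in Trem2-/- than in WT mice, against 1.37% of all genes, and 0 higher, against 0.782%, a total of 283 genes that ran from 107 to 1229 with 1 library left out. Postn was at 299 ± 102 CPM in Trem2-/- and 1133 ± 1301 in WT mice (SD, n = 4), and Thbs2 at 142 ± 44.8 against 442 ± 392 CPM. The difference was -1.30 ± 0.56 for Postn (log2, SE, limma p = 0.0333 and exact permutation p = 0.171) and -1.18 ± 0.53 for Thbs2 (limma p = 0.0414, exact permutation p = 0.229), each with a limma adjusted p of 0.9996. Tnc (-1.19, 95% interval -2.39 to 0.01) and Sparc (-0.84, -1.71 to 0.03) missed the threshold, Fn1 was at -0.31 (-1.24 to 0.62), and Thbs1 was at -0.01 (-0.71 to 0.69) and changed sign with quantile normalization and edgeR. All 6 pairs of groups overlapped, against 0.440% of genes higher and 0.539% lower without overlap. Without WT D0 replicate 4 the differences were -0.60 for Postn and -0.63 for Thbs2, and neither was called. Both calls were also lost without WT D0 replicate 1 (-1.28 and -0.98), Trem2-/- D0 replicate 2 (-1.17 and -1.05) or Trem2-/- D0 replicate 3 (-1.32 and -1.05), that of Thbs2 without Trem2-/- D0 replicate 1 (-1.26) and that of Postn without Trem2-/- D0 replicate 4 (-1.20). Without WT D0 replicate 2, which had the lowest Sparc, Postn, Tnc and Thbs2 values of its group, 4 genes were called (Postn -1.88, Tnc -1.79, Thbs2 -1.79 and Sparc -1.31). Lower calls at D0 also took in 2 of 8 fibroblast, 3 of 5 cartilage, 2 of 4 tendon and 2 of 4 osteoblast markers. They took in 2 of 14 matrix assembly partners as well, and 0 of 6 leukocyte markers. Summed fibroblast markers ran from 1285 to 5488 CPM in WT D0 and from 2092 to 2589.7 CPM in Trem2-/- D0 mice, and summed cartilage markers from 271 to 9155 and from 182 to 2520.06 CPM. The part of any of these lists in the differences of the 6 genes was not tested.

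The rise after injury was set against itself across the genotypes in a genotype-by-injury interaction. The rise was larger in Trem2-/- mice for Postn, by 1.93 ± 0.79 (log2, SE, 95% interval 0.26 to 3.61, limma adjusted p = 0.579), and for Thbs2, by 1.79 ± 0.75 (0.20 to 3.38, adjusted p = 0.580). So 2 of the 6 were called higher, against 2.77% of all genes, and 0 lower, against 5.02%, shares that themselves moved with single libraries (1026 genes called in all, 609 to 2233 with 1 library left out). Tnc followed at 1.52 (-0.18 to 3.22, not called), Sparc at 0.79 and Fn1 at 0.26, which became -0.03 without WT D0 replicate 4, and Thbs1 was at -0.40. Both the lower D0 values and the higher D7 values of Trem2-/- mice enter these differences, which therefore share their samples with the comparisons above. Neither gene was called without WT D7 replicate 3 (Postn 1.78, Thbs2 1.54). Thbs2 alone lost its call without WT D0 replicate 1 (1.59), WT D0 replicate 4 (1.24, with Postn at 1.23), Trem2-/- D0 replicate 2 (1.66), Trem2-/- D0 replicate 3 (1.67) or Trem2-/- D7 replicate 1 (1.66). Without WT D0 replicate 2, Postn (2.51), Thbs2 (2.40), Tnc (2.12) and Sparc (1.26) were called, and without both WT D0 replicate 4 and WT D7 replicate 3, a choice made after seeing the values, Postn (1.07) and Thbs2 (0.99) were not. With all libraries the interaction also called 4 of 4 tendon markers and 2 of 8 fibroblast markers higher. It called 1 of 14 matrix assembly partners and 0 of 5 cartilage markers higher, and 6 of 6 leukocyte markers lower. The part of such cells in the interaction of the 6 genes was not tested.

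**Figure D2:**
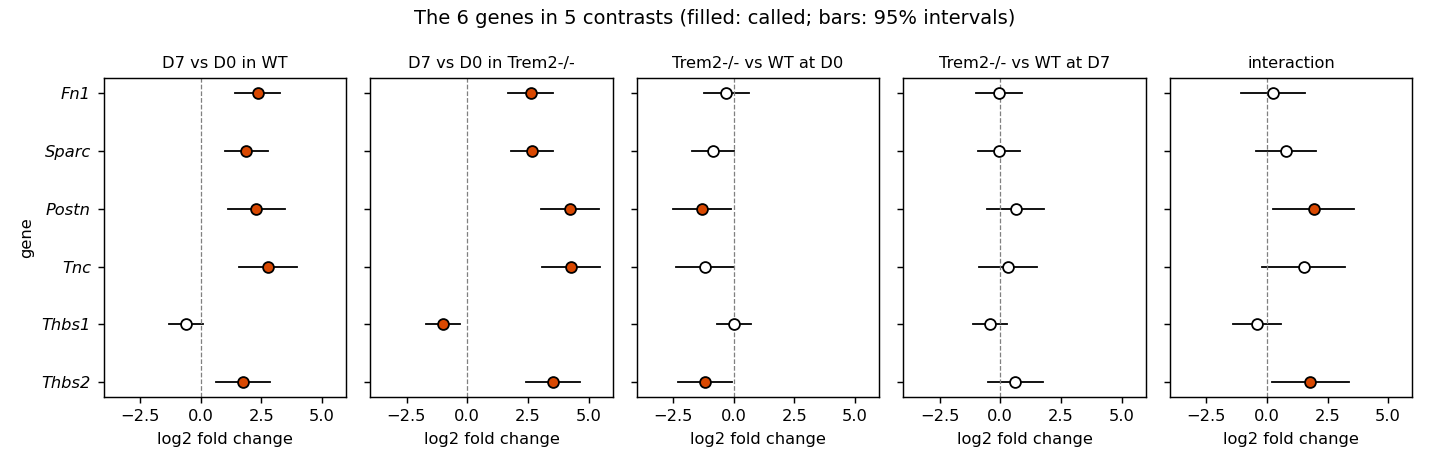
Log2 fold changes of the 6 genes in the 5 contrasts (points, limma) with 95% intervals (bars), filled where called. The intervals of the 5 rising genes lie clear of 0 after injury in both genotypes, those between genotypes at D7 all include 0, and at D0 and in the interaction only those of Postn and Thbs2 exclude it.

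Each gene was also set against the mean log2 level of 8 fibroblast markers in the same library. The markers were Pdgfra, Pdgfrb, Dcn, Lum, Prrx1, Twist1, Twist2 and Cdh11, which do not stand for all fibroblast transcripts. The marker mean itself was 0.95 higher at D7 in WT (log2, exact permutation p = 0.0857, overlapping) and 1.82 higher in Trem2-/- mice (p = 0.0286, exact, not overlapping). Against them, Tnc of Trem2-/- mice gained 2.46, Postn 2.41, Thbs2 1.72, Sparc 0.86 and Fn1 0.80 (log2) with no overlap between D0 and D7, which 1.45% of all genes did. Thbs1 lost 2.81 against them, as 90.6% of all genes fell against the rising markers. In WT mice Tnc (1.81), Fn1 (1.41) and Sparc (0.94) gained with no overlap, 3 of 6 against 1.56% of genes, while Postn (1.35), Thbs2 (0.80) and Thbs1 (-1.54) overlapped, so that 0 fell clear, against 12.0%. Without WT D0 replicate 4, 5 of the 6 genes did not overlap in WT, and with the median of the markers in place of their mean 1 did not. Between the genotypes at D7, Fn1 was 0.35 lower against the markers in Trem2-/- mice with no overlap (1 of 6, against 14.0% of genes lower and 0.0455% higher), 0 of 6 with the marker median and 2 of 6 without WT D7 replicate 1, WT D7 replicate 2 or Trem2-/- D7 replicate 3. At D0 all 6 overlapped, against 0.812% of genes higher and 0.0683% lower without overlap, and 1 did not without WT D0 replicate 2.

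**Figure D3:**
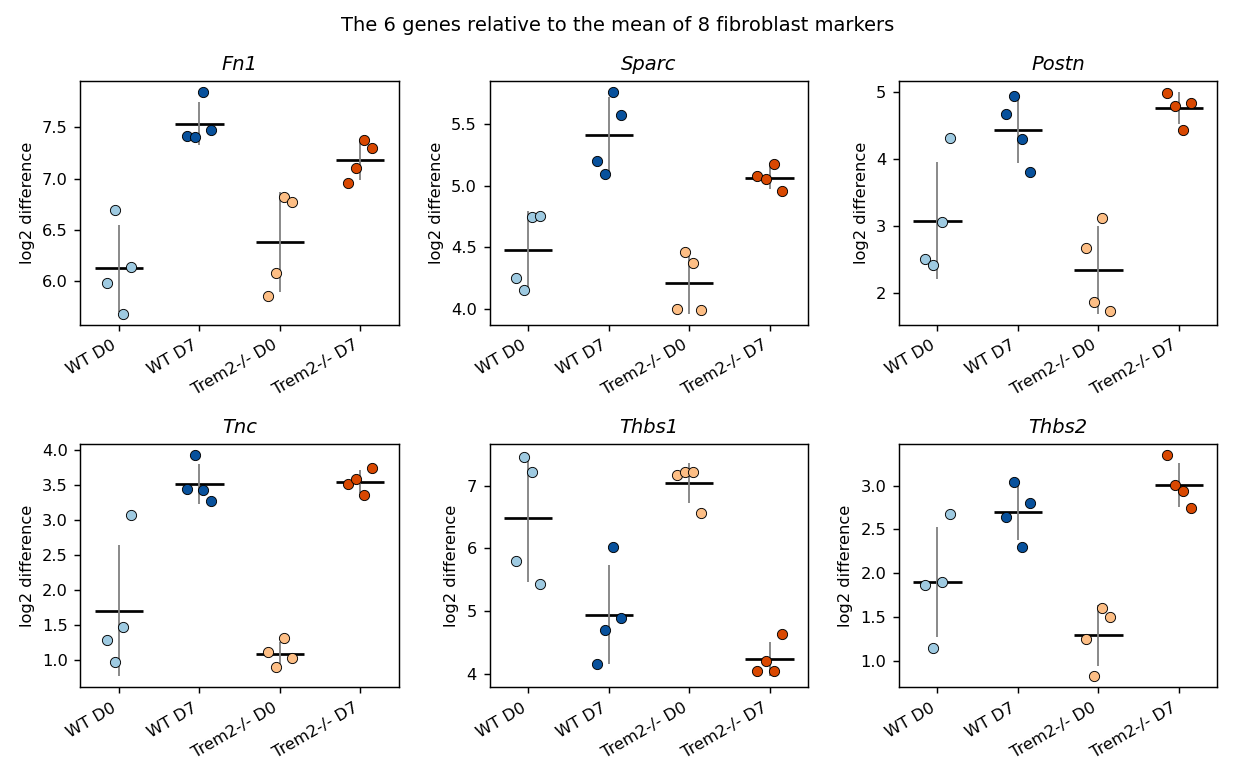
Log2 level of each gene minus the mean log2 level of 8 fibroblast markers in the same library, by mouse and group, with the group mean (horizontal bar) and SD (vertical bar). Tnc rises from below 1.5 in 3 of 4 WT D0 mice and all Trem2-/- D0 mice to above 3 in all injured mice. Thbs1 falls, without overlap in Trem2-/- mice only.

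Thbs1 and Thbs2 have closely related domains, and their balance shifted with injury, without overlap in Trem2-/- mice only. Thbs1 outnumbered Thbs2 by 15.3, 80.6, 40.3 and 6.73 times in WT D0 mice and by 2.85, 3.15, 13.3 and 4.24 times in WT D7 mice (ratio of CPM, not per length). The Trem2-/- ratio was 61.1, 85.2, 49.5 and 33.7 at D0 and 1.62, 2.29, 2.17 and 3.69 at D7. Thbs1 stayed the more abundant in all 16 libraries. The ratio fell by 4.54 on the log2 scale in Trem2-/- mice with no overlap (exact permutation p = 0.0286) and by 2.34 in WT mice with overlap through WT D0 replicate 4 and WT D7 replicate 3 (p = 0.0571, exact). The genotypes overlapped at D7 (exact permutation p = 0.0857) and at D0 (p = 0.257).

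**Figure D4:**
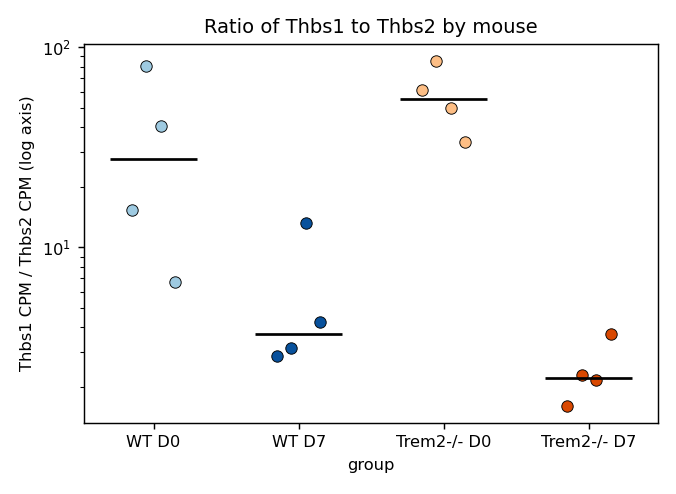
Ratio of Thbs1 CPM to Thbs2 CPM in each mouse (log axis), by group, with a bar for the group median. The median ratio is 27.8 at WT D0, 55.3 at Trem2-/- D0, 3.70 at WT D7 and 2.23 at Trem2-/- D7.

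Per length, in CPM per kilobase of exons, the order of the genes changed with injury. In uninjured mice Thbs1 had the highest level, 1239 ± 195 in WT and 1261 ± 355 in Trem2-/- mice (SD, n = 4), ahead of Sparc (592 ± 385 and 280.5 ± 65.6) and Fn1 (563 ± 304 and 419.6 ± 155). After injury Fn1 led at 2570.4 ± 253 and 2503 ± 470.4, followed by Sparc at 1849 ± 421 and 1777 ± 291. Tnc and Thbs2 stayed lowest, at 59.9 and 63.2 in WT D0, 15.6 and 20.3 in Trem2-/- D0, 245 and 157 in WT D7 and 300.3 and 234 CPM per kilobase in Trem2-/- D7 mice. Neighbours in this order overlapped in every case in WT D0 mice, and in WT D7 mice all but Sparc and Thbs1 did. In Trem2-/- D0 mice Thbs1 was clear of Fn1 and Sparc clear of Postn, and in Trem2-/- D7 mice Fn1 was clear of Sparc, Sparc of Postn and Thbs1 of Tnc. Exons of a gene on the opposite strand that is not analysed here overlap 292 exon bases of Fn1 (Apol7d), 176 of Tnc (8030451A03Rik) and 208 of Thbs1 (Gm29233), and whether the authors counted reads by strand is unknown. None of the 6 genes shares a stretch of 75 bases, the cycles of the sequencing kit, with another gene, and the read length itself is not stated.

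Related matricellular genes were measured for 19 of 20 listed names. In WT mice 11 of the 19 were called higher after injury, against 19.3% of all genes, and 0 lower, against 18.2%, with a median of 0.73 (log2) beside -0.04 for all genes. Among Trem2-/- mice 13 rose by the same test, against 26.5%, and 0 fell, against 27.9%, with a median of 1.22 beside -0.04. Tnn, which encodes tenascin-N, rose most, by 3.06 in WT and 5.44 in Trem2-/- mice (limma adjusted p = 0.00351 and 1.98e-05). Tnr, the tenascin of the nervous system, was called higher at a very low level (0.206 to 1.06 CPM in WT and 0.274 to 1.42 in Trem2-/- mice, group means), and Tnxb, the tenascin of loose connective tissue, was at 0.08 and -0.62 and not called. Of the other thrombospondins, Thbs3 rose by 2.39 and 3.22, Comp, the cartilage thrombospondin, by 1.84 and 1.88, and Thbs4 by 1.58 in Trem2-/- mice (0.41 and not called in WT). Wisp1 (1.95 and 3.29) and Wisp2 (2.07 and 3.72), secreted proteins of the CCN family, rose in both, and of the SPARC relatives Smoc1 did (1.90 and 2.79) while Sparcl1 (0.25 and 0.29) and Spock2 (-0.69 and -0.72) were not called. At D0 3 of the 19, Tnn (-2.03), Wisp2 (-1.01) and Wisp1 (-0.95), were called lower in Trem2-/- mice, against 1.37% of all genes, the interaction called 3 higher, against 2.77%, and 0 were called at D7. Among the 5 thrombospondin genes measured, Thbs1 was the 1 whose difference was below 0 in both genotypes.

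**Figure D5:**
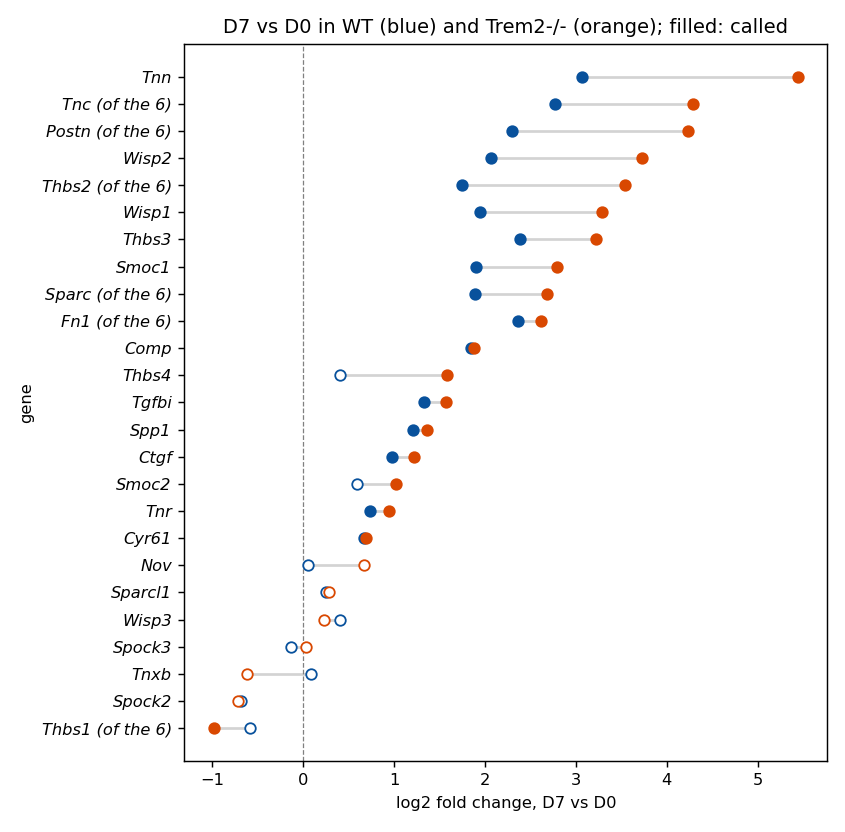
Log2 fold change after injury (D7 vs D0) of the 6 genes and 19 related genes in WT (blue) and Trem2-/- mice (orange), ordered by the latter, filled where called. Tnn, Tnc and Postn stand at the top with 5.44, 4.29 and 4.23 in Trem2-/- mice, and Thbs1 at the bottom with -0.99.

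Of the receptors that bind these proteins, 13 of 15 listed names were measured. In WT mice 8 were called higher, against 19.3% of all genes, and 2 lower, against 18.2%, with a median of 0.74. In Trem2-/- mice 8 were called higher, against 26.5%, and 3 lower, against 27.9%, with a median of 0.87. The lower counts were close to the shares of all genes. Itgav (1.18 and 1.81), Itgb5 (1.20 and 1.70), Itga5 (1.17 and 1.51) and Itgb1 (0.81 and 1.21), integrin chains that hold fibronectin and periostin, rose in WT and Trem2-/- mice, as did Cacna2d1 (1.18 and 1.62), the calcium channel subunit that binds thrombospondins. Stab1, a scavenger receptor that takes up SPARC in macrophages, rose by 1.38 and 0.87. Of 10 macrophage markers, 6 were called higher in WT, against 19.3% of all genes, and 0 lower, against 18.2%, with a median of 1.22. Trem2-/- mice had 5 of them called higher, against 26.5%, and 2 lower, against 27.9%, with a median of 0.39. Cd47, a thrombospondin 1 receptor carried by most cells, fell by 0.43 and 0.54, and Cd36, another, by 0.80 in Trem2-/- mice (-0.57 and not called in WT). Itga4, the integrin chain by which leukocytes bind fibronectin, fell by 0.74 and 1.41, and it was the 1 receptor called between the genotypes at D7 (-0.64, limma adjusted p = 0.674). The WT falls of Cd47 and Itga4 had adjusted p of 0.0830 and 0.0697 (limma). Beside Itga4, the leukocyte markers were called lower in Trem2-/- mice at D7 in 6 of 6 cases, against 4.53% of all genes, with summed levels of 1328 to 1657 CPM against 1703 to 3697 CPM in WT mice. The part of leukocytes in the Itga4 values was not tested.

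Partners in matrix assembly rose with the 5 genes. Of 14 measured, 11 were called higher in WT mice, against 19.3% of all genes, with a median of 2.06, and 12 in Trem2-/- mice, against 26.5%, with a median of 2.80 (log2), and 0 fell, Dcn being also 1 of the fibroblast markers. The collagen genes Col5a1 (2.99 and 4.35), Col1a1 (2.85 and 4.45), Col3a1 (2.85 and 4.40), Col1a2 (2.56 and 3.98) and the fibril-surface collagen Col12a1 (2.52 and 4.14) rose most. Lox, which crosslinks collagen, rose by 2.04 and 3.27. Tgfb1 (0.03 and 0.08) was not called in either genotype, whereas Tgfb2 was called in both (1.01 and 2.13, limma adjusted p = 0.112 and 0.00154).

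The genes whose log2 values tracked each of the 6 most closely over the 16 libraries were sought among the 10552 genes averaging 5 CPM or more. For Tnc they were Col5a1, Col5a2 and Angptl2 (Pearson's r of 0.993 for each, and 0.961 to 0.972 around the group means). For Postn they were C1qtnf3, Wisp1 and Cthrc1 (0.991 to 0.992, within groups 0.946 to 0.966), for Thbs2 Mmp2, Mfap2 and Col8a2 (0.988 to 0.990, within groups 0.949 to 0.971), and for Sparc Fmn1, Col1a2 and Fam180a (0.988 to 0.991, within groups 0.931 to 0.963). Fn1 was closest to Gm17455, Glg1 and Dusp14 (0.984 to 0.987, within groups 0.888 to 0.921). Thbs1 had other neighbours, the kinase gene Map2k4 and the membrane traffic genes Stx11 and Rab8b (0.979 to 0.983, within groups 0.953 to 0.976). Each of these lists was picked as the highest of many correlations, and the libraries share their injury state. Within groups, WT D0 mice weigh most for the rising genes.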

How the data were processed

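The deposited signal is CPM that the authors normalized by TMM in edgeR, from featureCounts totals of STAR alignments to mm10. Versions, annotation and strand setting are not given in the sources used here. The labels and the methods name different library kits. In each library 100% of the deposited signal values were whole multiples (tolerance 0.01) of the value of 1 read, so reads per gene were recovered; 3 reads are 0.101 to 0.250 CPM, for counting error only. Replicates of a group differed by more than counting error (chi-square over its degrees of freedom at least 10.4).

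The 13173 genes tested were compared as log2(value + 1) with limma 3.58.1 (trend) in R 4.3.3, with the 4 groups as 1 factor. Fold changes are on this scale and p-values were adjusted by Benjamini-Hochberg over all genes tested. Single values were compared by exact two-sided permutation tests over 70 assignments, whose smallest p is 0.0286. Nothing in the labels says that each sample is a separate animal, so p-values measure only the spread between these samples, which may be technical. edgeR 4.0.16 and voom were run on the recovered reads as alternatives. Positions and exon lengths are from GENCODE M21, in which 13428 symbols were found, and promoter windows from RefSeq, which held entries for 4 of the 6 genes; the Sparc entry overlaps exons and is not shown. The limma, edgeR and voom fits were checked on simulated data with the same spread in every group. The spread of these data differs between groups, which that check does not cover. The 6 genes, the gene lists and the tests were chosen with earlier results of these data known. Named genes are the 6, up to 4 called genes per list and contrast with the largest change, the 3 genes most correlated with each of the 6, and Trem2; other list genes named beside them were chosen after their values were seen.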

Additional observations from a re-analysis of the deposited data

Results flagged for a closer look

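A mouse far from its 3 group mates was marked in 5 of 52 groups of 4 values, where chance gives 2.6. The measure is the gap to the nearest value over the group's range, set against Dixon's 95% critical value for 4 samples. It was 0.830 for Fn1 in WT D7 replicate 4 (34415 CPM), 0.971 for Fn1 in Trem2-/- D0 replicate 4 (7624 CPM), 0.867 for the Thbs1 to Thbs2 ratio in WT D7 replicate 3 (13.3), 0.853 for Fn1 relative to the fibroblast markers in WT D7 replicate 3 and 0.924 for Thbs1 relative to them in Trem2-/- D0 replicate 4.

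The rise after injury differed between the genotypes at an unadjusted p under 0.05 for Postn (interaction 1.93 on the log2 scale) and Thbs2 (1.79). Neither passed adjustment over all genes.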

How the results depend on the processing

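Of 120 recomputed single-gene differences in each comparison of 2 groups, 114 kept direction and side of the threshold for D7 vs D0 in WT, 119 in Trem2-/- mice, 114 between genotypes at D7 and 89 at D0, as did 148 of 162 in the interaction. The genes called at D7 went from 0 to 2 when the fit held only the groups compared. Those at D0 went from 2 to 0 by adjusted p or with only the groups compared, and to 4 with quantile normalization, edgeR or voom. Those of the interaction went from 2 to 0 by adjusted p. Leaving out WT D0 replicate 4 and WT D7 replicate 3 together left 0 at D0 and 0 in the interaction. Leaving out 1 library gave 5 to 6 called after injury in WT, 6 to 6 in Trem2-/-, 0 to 0 at D7, 0 to 4 at D0 and 0 to 4 in the interaction. Relative to the fibroblast markers, the genes that did not overlap went from 3 to 1 in WT and from 1 to 0 between genotypes at D7 with the marker median, and with 1 library left out they were 3 to 5 in WT, 6 to 6 in Trem2-/-, 1 to 2 at D7 and 0 to 1 at D0.

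Differences close to 0 changed sign. At D7, Fn1 ran from -0.17 to 0.016 with 1 library left out, above 0 without WT D7 replicate 4 or Trem2-/- D7 replicate 1 (0.011), and Sparc from -0.14 to 0.098, above 0 without WT D7 replicate 4 or Trem2-/- D7 replicate 4 (0.043). At D0, Thbs1 became 0.17 with quantile normalization and 0.026 with edgeR, and ran from -0.15 to 0.16 with 1 library left out, above 0 without WT D0 replicate 3 (0.097), Trem2-/- D0 replicate 3 or Trem2-/- D0 replicate 4 (0.051). The interaction of Fn1 ran from -0.032, without WT D0 replicate 4, to 0.55, and became -0.044 without that library and WT D7 replicate 3. The causes were not tested.

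Equal replicate numbers did not pair the samples: the correlation of deviations ran from -0.509 to 0.406, over 0.1 in 7 of 16 pairs, and 5 of 16 samples correlated best with their own number. With the replicate number as a block 5, 6, 0, 3 and 2 of the 6 genes were called in WT, in Trem2-/-, at D7, at D0 and in the interaction, and 279 genes in all at D0 against 283. Genes called over the whole table moved by more than 1.5 times at D0, from 283 to 164 with a pseudocount of 5, 149 with only the groups compared and 466 with edgeR, and at D7 from 753 to 1366 with only the groups compared. With 1 library left out, the genes called over the whole table ran from 4013 to 5763 after injury in WT (4933 with all), 6712 to 7334 in Trem2-/- (7173), 479 to 1121 at D7, 107 to 1229 at D0 and 609 to 2233 in the interaction (1026). The counts that moved by more than 1.5 times were those at D7 without WT D7 replicate 3 (479), at D0 without WT D0 replicate 1 (433), 2 (1229), 3 (440) or 4 (107) or Trem2-/- D0 replicate 4 (539), and in the interaction without WT D0 replicate 2 (2233), WT D0 replicate 4 (609) or WT D7 replicate 3 (660). Depth was at least 1436 reads for each value of the 6 genes.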
